A study of Homo sapiens with 8 samples.

Results

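The sialyl-, fucosyl- and GalNAc-transferases are the Golgi enzymes that start mucin-type sugar chains and cap glycans with sialic acid or fucose. Genes were taken as members when a probe set was annotated to a single symbol beginning with ST3GAL, ST6GAL, ST6GALNAC, ST8SIA, FUT or GALNT and a number. The rule gave 49 members out of 19775 genes and did not use any measured value. Of these, 45 are transferase genes (6 ST3GAL, 2 ST6GAL, 6 ST6GALNAC, 5 ST8SIA, 9 FUT and 17 GALNT), and 4 are noncoding neighbours that carry such a symbol (FUT8-AS1, GALNT7-DT, ST3GAL3-AS1 and ST8SIA6-AS1). The members had 124 probe sets in all, and where a gene had several, its brightest on average across the 8 arrays stands for it.

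The cells were A549, a human lung adenocarcinoma line, grown either as monolayers (2D) or as spheroids made by hanging droplet (3D). Each kind of culture was given vehicle (control) or TNF at 10 ng/ml with TGFβ at 2 ng/ml (treated), in 2 rounds of 48 h, which is 4 days. There were 2 Affymetrix U133 plus 2.0 arrays in each of the 4 groups. The methods call the arrays of a pair technical duplicates, whereas the deposited design calls them biological replicates, so p-values measure the spread between arrays, which may be technical. In a bulk RNA sample, fewer cells of a kind and less RNA per cell cannot be told apart.

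A sialyltransferase moves sialic acid from CMP-sialic acid to the end of a sugar chain, and its name gives the linkage: ST3GAL enzymes add it to galactose in the alpha-2,3 position, ST6GAL enzymes to galactose in the alpha-2,6 position, ST6GALNAC enzymes to N-acetylgalactosamine, and ST8SIA enzymes to another sialic acid. Fucosyltransferases use GDP-fucose and make the H, Lewis and core-fucose structures. GALNT enzymes take UDP-GalNAc and place the first sugar of a mucin-type chain on serine or threonine. Glycans of epithelial cells carry these caps on adhesion proteins, mucins and growth factor receptors.

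Promoter sequences are shown for ST8SIA4, GALNT12 and GALNT7, the 3 members whose difference between treated and control spheroids passed the test and still passed with each array left out in turn. Each is the window of 250 bases before the annotated start in RefSeq's GRCh38.p14, written 5′ to 3′ on the strand of the gene, with motif matches in capitals. The ST8SIA4 window (chr5:100903283-100903532, minus strand) has 55.6% G and C, that of GALNT12 (chr9:98807420-98807669, plus strand) 67.2% and that of GALNT7 (chr4:173168561-173168810, plus strand) 72.4%, against a median of 58.0% over all 35116 windows.
ST8SIA4: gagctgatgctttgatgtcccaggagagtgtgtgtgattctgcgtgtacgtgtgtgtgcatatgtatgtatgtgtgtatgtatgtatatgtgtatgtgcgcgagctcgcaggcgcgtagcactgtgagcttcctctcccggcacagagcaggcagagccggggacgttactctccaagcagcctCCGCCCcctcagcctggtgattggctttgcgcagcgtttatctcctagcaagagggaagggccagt
GALNT12: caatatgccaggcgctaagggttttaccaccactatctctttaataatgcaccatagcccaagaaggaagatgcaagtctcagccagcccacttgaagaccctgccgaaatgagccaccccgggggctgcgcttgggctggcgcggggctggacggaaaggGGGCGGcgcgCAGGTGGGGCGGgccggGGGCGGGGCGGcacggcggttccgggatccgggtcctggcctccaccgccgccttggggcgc
GALNT7: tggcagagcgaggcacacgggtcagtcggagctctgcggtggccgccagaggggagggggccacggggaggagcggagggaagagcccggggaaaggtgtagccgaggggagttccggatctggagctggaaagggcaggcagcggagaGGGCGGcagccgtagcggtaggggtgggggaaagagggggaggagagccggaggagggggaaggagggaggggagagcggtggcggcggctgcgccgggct

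The motifs searched, on both strands, were AP-1 (TGACTCA), NF-kB, an E-box (CAGGTG), SMAD (GTCTAGAC), the letters TATAAA and the GC box (GGGCGG). The capitals in ST8SIA4 and GALNT7 mark 1 GC box each. Those in GALNT12 mark 4 GC boxes and 1 E-box, which touches a GC box, and 2 of the GC boxes share a base. The GC box is found in 42.6% of all windows and the E-box in 17.5%. RefSeq windows were matched for 11 of the 13 members that passed in any comparison, with 24 windows in all, of which 14 (58.3%) held the GC box and 5 (20.8%) the E-box. Some windows of the same gene overlap, as for ST3GAL5 and ST6GAL2, so the same match can count in more than 1 window. None of the 24 windows held the AP-1, NF-kB, SMAD or TATAAA letters, which are found in 4.2%, 1.73%, 0.182% and 10.7% of all windows. ST3GAL1 and GALNT5 had no entry.

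The deposited values are log2 expression values after GCRMA background correction. The lowest value on each array was 2.23 and the array medians lay between 2.43 and 2.50, so a value near the median stands close to background. By this measure 29 of the 45 transferases were above the median on all 8 arrays. These were all 6 ST3GAL and both ST6GAL genes, ST6GALNAC3 and ST6GALNAC4, ST8SIA4 and ST8SIA5, 5 fucosyltransferases (FUT4 to FUT8), and 12 of the 17 GALNT genes. Another 12 were at or below the median on every array: FUT3, FUT9, GALNT8, GALNT9, GALNT15, GALNT16, ST6GALNAC1, ST6GALNAC2, ST6GALNAC5, ST8SIA1, ST8SIA2 and ST8SIA3. FUT1, FUT2, GALNT3 and ST6GALNAC6 were above it on some arrays. Of the noncoding neighbours, FUT8-AS1 was above the median on all arrays, between 4.16 and 5.14, and the other 3 on none. Some transferases above the median repeated the same value on several arrays. They include FUT4 (5.17), FUT5 (2.95), FUT6 (4.90), FUT7 (3.03), GALNT17 (3.47) and ST8SIA5 (3.16). Such a repeated value may hold no signal, so standing above the median need not mean expression.

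In spheroids, treatment changed 7 of the 49 members (14.3%): the sialyltransferase ST3GAL1 and the mucin-type initiators GALNT12, GALNT5 and GALNT14 rose, while the polysialyltransferase ST8SIA4, the GalNAc-transferase GALNT7 and the ganglioside GM3 synthase ST3GAL5 fell. The share was near the background, since 16.4% of all genes passed in either direction, 5.53% as higher and 10.8% as lower (limma, Benjamini-Hochberg adjusted p under 0.05 over all probe sets). The members that passed as higher were 4 of 49, and those that passed as lower 3 of 49. The median log2 difference was 0.0 over the members and 0.0 over all genes. Of these, 15 members and 6380 genes were at or below the array median on all arrays, so the medians say little. With the fit restricted to the 4 spheroid arrays none of the 49 passed. The share of all genes that passed in that fit is not given here, so this count is not a result about the members. Without dim probe sets 13 of the 34 members still tested passed (38.2%), as did 39.2% of all genes still tested. In monolayers 1 of the 49 members passed, FUT1, which lay close to background, against 0.197% of all genes. An unadjusted p under 0.05 was found for 9 of the 49, a larger share than the 10.7% of all genes.

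The responses in 3D and in 2D differed for 3 members, ST8SIA4, GALNT12 and FUT1, by the interaction term of the same fit, against 3.26% of all genes. Untreated spheroids differed from untreated monolayers in 3 members, ST6GAL2, GALNT7 and GALNT12, against 10.7% of all genes. Treated spheroids differed from treated monolayers in 12 members, of which 3 were higher and 9 lower in 3D, against 23.6% of all genes. These comparisons share arrays, so their results are not independent of each other. Altogether 13 members passed in at least 1 comparison and 36 in none.

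**Figure D1:**
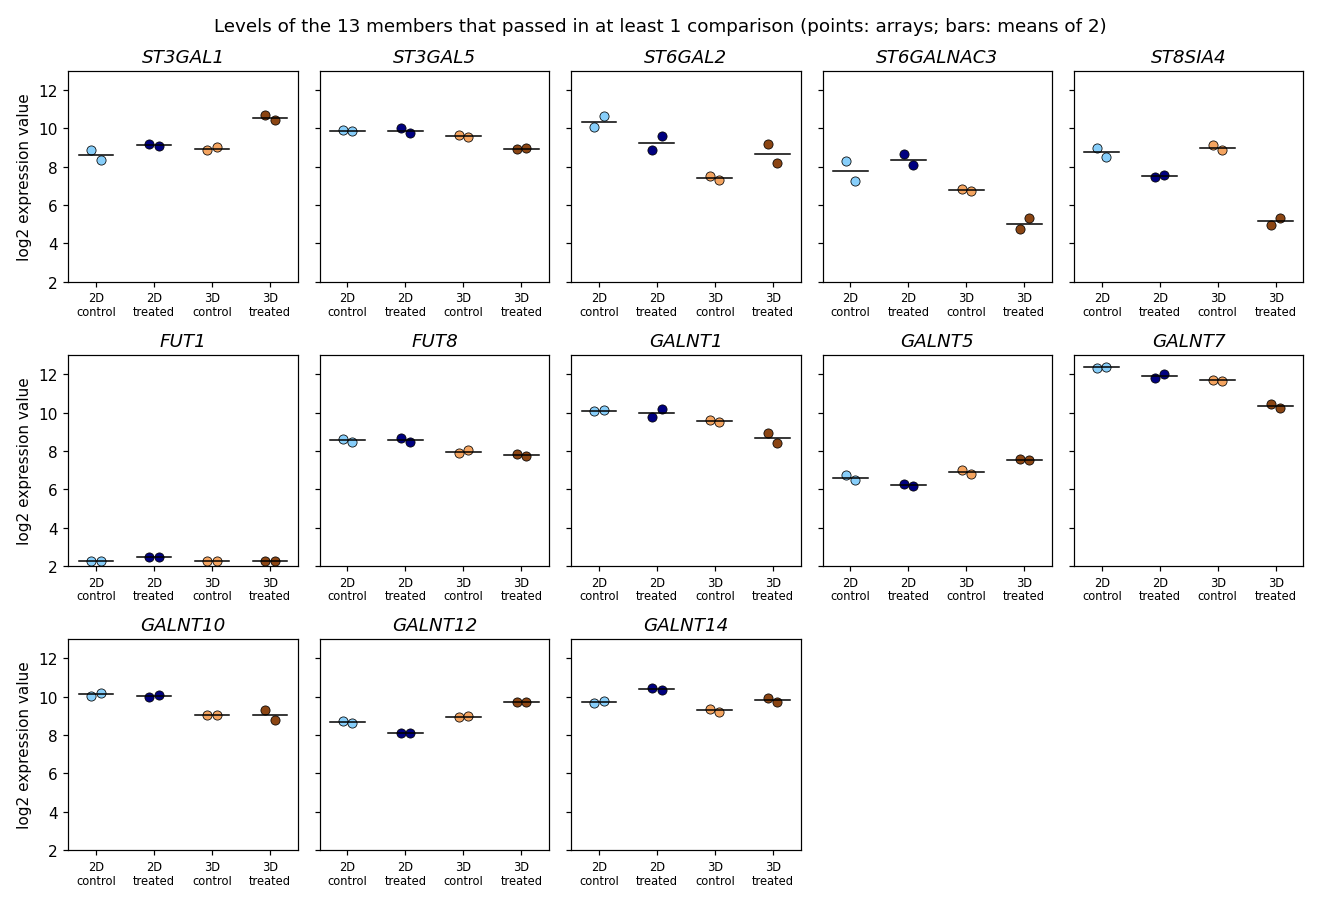
Log2 expression value (vertical axis) of the 13 members that passed in at least 1 comparison, by group (horizontal axis); points are arrays and bars the means of 2 arrays. ST8SIA4 lay between 4.95 and 5.34 in treated spheroids and at 7.47 or above in every other group, while GALNT12 was highest in treated spheroids and lowest in treated monolayers.

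ST8SIA4, which builds chains of alpha-2,8-linked sialic acid on carrier proteins, had the largest difference of any member in the 5 comparisons. It read 9.13 and 8.85 on the control spheroid arrays and 4.95 and 5.34 on the treated ones. In monolayers it read 8.99 and 8.49 without treatment and 7.47 and 7.58 with it. The treated arrays were thus below the control arrays in both kinds of culture, and the treated spheroids were below all other arrays. The log2 difference in spheroids was −3.84 (SE 0.24, limma adjusted p 0.0046), which is 14.3-fold lower.

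In monolayers the log2 difference of ST8SIA4 was −1.22 (SE 0.24, limma adjusted p 0.252) and did not pass. The spheroid response was lower than the monolayer response by −2.63 on the log2 scale (SE 0.34, limma adjusted p 0.0478). That call was lost when either 2D treated array, either 3D control array or 2D control array 2 was left out, with adjusted p up to 0.114, and over the 8 fits without an array the difference ran from −2.88 to −2.37. It was also lost after quantile normalization (−2.49, limma adjusted p 0.0616). Treated spheroids were 5.20-fold lower than treated monolayers (log2 difference −2.38, limma adjusted p 0.00795), whereas the 2 control groups overlapped (log2 difference 0.25, limma adjusted p 0.805). Of the 5 probe sets of ST8SIA4, 4 were above the array median on all arrays, and all 4 fell in spheroids, by log2 differences between −4.76 and −3.10. Between the treated groups these 4 ran from −2.86 to −0.27 and 3 passed, between the control groups from 0.25 to 1.29 with none passing, and for the difference of the responses from −3.52 to −1.56 with 3 passing. The fifth probe set stood at background.

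The carriers of polysialic acid did not pass in the spheroid treatment comparison. NCAM1, its best known carrier, was at or below the array median on all 8 arrays, at 2.32 or less. NRP2, which also carries it, read 9.55 and 9.55 in control spheroids and 10.07 and 9.84 in treated ones (log2 difference 0.40, limma adjusted p 0.629). CADM1, the third carrier listed, differed by −0.12 (limma adjusted p 0.537).

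**Figure D2:**
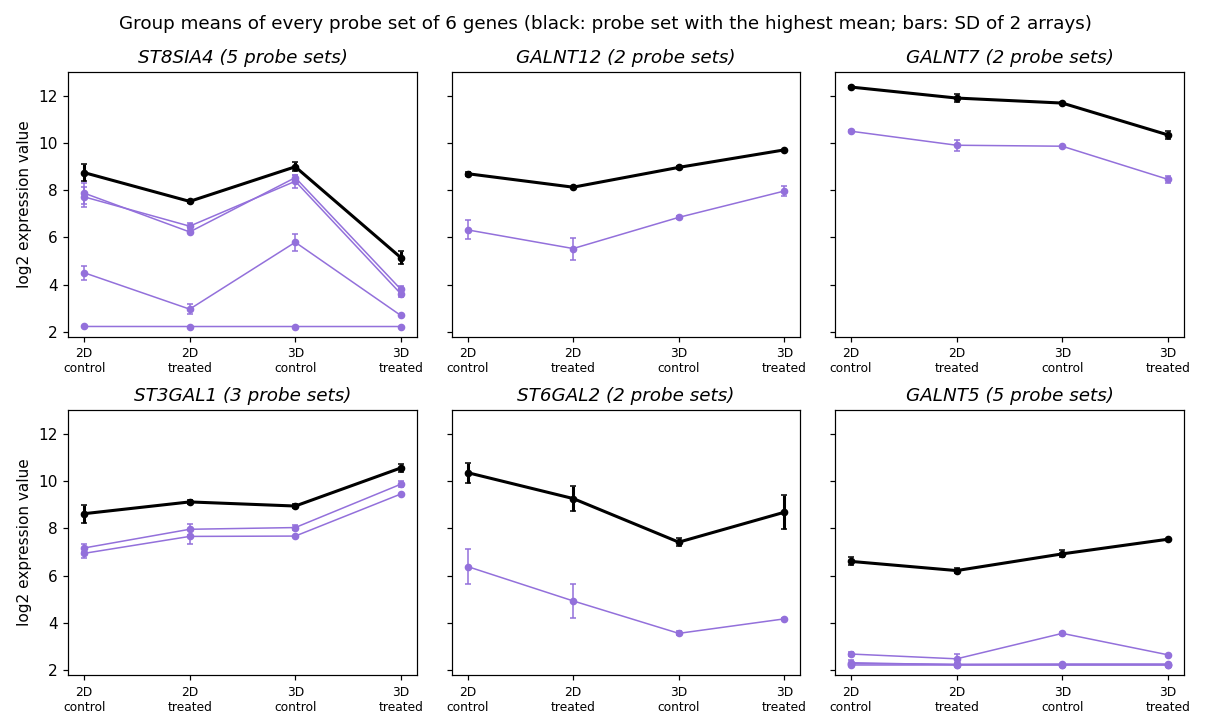
Group means of every probe set of 6 genes (vertical axis, log2 expression value; horizontal axis, group); black lines are the probe sets with the highest mean, purple lines the others, and bars the SD of 2 arrays. The probe sets of ST8SIA4, GALNT12, GALNT7, ST3GAL1 and ST6GAL2 that lay above background had the same direction between control and treated spheroids, while a dim probe set of GALNT5 moved against the black one.

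Among the alpha-2,3-sialyltransferases, ST3GAL1, which caps the galactose of the mucin core disaccharide, was higher in treated spheroids. It read 8.88 and 9.01 in control spheroids and 10.68 and 10.43 in treated ones, and 8.89 and 8.36 in control and 9.18 and 9.06 in treated monolayers. Both treated spheroid arrays were above the other 6. The log2 difference in spheroids was 1.61 (SE 0.21, limma adjusted p 0.0187), or 3.05-fold, and all 3 probe sets of ST3GAL1 passed as higher, with log2 differences between 1.61 and 1.83. Leaving out either 2D treated array, either 3D control array or 3D treated array 1 ended the call, with adjusted p up to 0.0865. The monolayer difference was 0.50 (limma adjusted p 0.716), and the difference of the responses did not pass (1.11, SE 0.29, limma adjusted p 0.169). Treated spheroids were 2.71-fold above treated monolayers (log2 difference 1.44, limma adjusted p 0.0173), a call that ended when the same arrays were left out.

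ST3GAL5, the GM3 synthase that opens the ganglioside pathway, was lower in treated spheroids. It read 9.67 and 9.55 in control spheroids and 8.90 and 8.96 in treated ones. In monolayers it read 9.90 and 9.87 without and 10.00 and 9.77 with treatment, and these groups overlapped. The log2 difference was −0.68 in spheroids (SE 0.09, limma adjusted p 0.0208) and −0.95 between treated spheroids and treated monolayers (limma adjusted p 0.00709). The spheroid call was lost when any array other than the 2D treated ones was left out, with adjusted p up to 0.0874, while the other call held with each array left out. None of the 4 ganglioside synthesis genes listed beside it (UGCG, B4GALNT1, B3GALT4 and B4GALT6) passed in this comparison.

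The other 4 alpha-2,3-sialyltransferases did not pass in any comparison. ST3GAL4, which caps lactosamine chains, had log2 differences of 0.90 in spheroids and 1.17 in monolayers (unadjusted p 0.041 and 0.0173, limma adjusted p 0.199 and 0.399). ST3GAL6, which acts on similar chains, had 1.02 and −0.34 (limma adjusted p 0.22 and 1). ST3GAL2 and ST3GAL3 differed by −0.07 and 0.62 in spheroids.

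ST6GAL2, which places alpha-2,6-linked sialic acid on galactose, separated the untreated cultures. It read 10.06 and 10.65 in control monolayers and 7.53 and 7.31 in control spheroids. The log2 difference between these groups was −2.94 (SE 0.48, limma adjusted p 0.0431), or 7.67-fold lower in 3D. The second probe set gave −2.82 without passing. The call was lost when any 1 of the 8 arrays was left out, with adjusted p up to 0.167 and log2 differences from −3.24 to −2.64.

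After treatment ST6GAL2 read 8.90 and 9.63 in monolayers and 9.20 and 8.17 in spheroids, and these groups overlapped. The treated arrays were below the controls in 2D and above them in 3D, but neither difference passed (−1.10 and 1.26, limma adjusted p 0.768 and 0.24), and nor did the difference of the responses (2.36, SE 0.68, limma adjusted p 0.2). ST6GAL1, the widely expressed enzyme of the same linkage, read 8.90 and 8.89 in control and 7.56 and 7.09 in treated spheroids, and 10.06 and 9.25 in control and 8.80 and 8.72 in treated monolayers. Its treated arrays were below the controls in both, yet the spheroid difference of −1.57 missed the threshold (SE 0.32, limma adjusted p 0.0537).

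ST6GALNAC3, which adds sialic acid to the GalNAc of short sialylated chains and gangliosides, was lowest in treated spheroids. It read 4.77 and 5.30 there and 8.66 and 8.07 in treated monolayers, a log2 difference of −3.33 (SE 0.45, limma adjusted p 0.0147), or 10.0-fold lower. Control spheroids read 6.85 and 6.76 and control monolayers 8.29 and 7.25. The treated and control arrays overlapped in 2D and did not in 3D, where the difference was −1.77 (limma adjusted p 0.0934). The call between the treated groups was lost without either 2D treated array or without 3D treated array 1, with adjusted p up to 0.066. ST6GALNAC4, which acts on the same kind of chain, differed by −0.70 in treated against control spheroids (limma adjusted p 0.0583).

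GALNT12, an initiator of mucin-type chains in epithelia, lay above its controls in treated spheroids and below them in treated monolayers. It read 8.92 and 9.00 in control and 9.71 and 9.70 in treated spheroids, and 8.75 and 8.64 in control and 8.13 and 8.12 in treated monolayers. The 4 groups did not overlap. The log2 difference was 0.74 in spheroids (SE 0.047, limma adjusted p 0.00464), or 1.67-fold, and −0.57 in monolayers (SE 0.047, limma adjusted p 0.0614), which did not pass. The responses differed by 1.31 (SE 0.066, limma adjusted p 0.0077), a call that held with each array left out.

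Treated spheroids had 2.98-fold more GALNT12 than treated monolayers (log2 difference 1.58, limma adjusted p 0.000979). This was the 1 call of a member that still passed when the fit held only the 4 arrays compared. The difference between the control groups was small, at 0.27 (limma adjusted p 0.0494), and was lost on leaving out any array other than 2D control array 1, with adjusted p up to 0.166. The second probe set of GALNT12 had the same directions, with 1.11 in spheroids and −0.79 in monolayers, but did not pass in either. For the difference of the responses it gave 1.90 and did not pass (limma adjusted p 0.14).

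GALNT7, which adds further GalNAc to peptides that already carry it, was lower in treated spheroids. It read 11.72 and 11.64 in control and 10.45 and 10.22 in treated spheroids, and 12.34 and 12.38 in control and 11.78 and 12.01 in treated monolayers. The log2 difference in spheroids was −1.35 (SE 0.11, limma adjusted p 0.00817), or 2.54-fold lower, and both probe sets passed. In monolayers it was −0.46 (limma adjusted p 0.353), and the difference of the responses, −0.88, did not pass (limma adjusted p 0.0891). GALNT7 was also lower in control spheroids than in control monolayers (−0.68, limma adjusted p 0.0467), a call that ended with any 1 of the 8 arrays left out (adjusted p up to 0.179), and in treated spheroids than in treated monolayers (−1.56, limma adjusted p 0.00448).

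GALNT5 read 7.03 and 6.82 in control and 7.56 and 7.52 in treated spheroids, and 6.72 and 6.49 in control and 6.28 and 6.15 in treated monolayers. It is another initiator of mucin-type chains. It was above its controls in 3D (log2 difference 0.62, SE 0.12, limma adjusted p 0.0465) and below them in 2D (−0.39, limma adjusted p 0.474), and the difference of the responses did not pass (1.01, limma adjusted p 0.0734). The spheroid call was lost with any 1 of the 8 arrays left out, with adjusted p up to 0.158. A second, dimmer probe set of GALNT5 gave −0.91 in spheroids (limma adjusted p 0.0154), the opposite direction, so the direction of this gene depends on the probe set. Treated spheroids were 2.50-fold above treated monolayers (log2 difference 1.32, limma adjusted p 0.00615).

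GALNT14, an initiator that has been tied to death receptor glycosylation, read 9.38 and 9.23 in control and 9.96 and 9.74 in treated spheroids. In monolayers it read 9.70 and 9.80 without and 10.45 and 10.38 with treatment. It was thus above its controls in both kinds of culture, by 0.54 in 3D (SE 0.10, limma adjusted p 0.0435) and 0.66 in 2D (SE 0.10, limma adjusted p 0.162). The 3D call held only without 3D treated array 2 and was lost with any other array left out, with adjusted p up to 0.159. GALNT14 was lower in treated spheroids than in treated monolayers (−0.56, limma adjusted p 0.0292), a call that held only without 3D treated array 1 (adjusted p up to 0.124 without another array).

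GALNT1 and GALNT10, initiators with broad expression, passed only between the treated groups. GALNT1 read 9.75 and 10.18 in treated monolayers and 8.94 and 8.40 in treated spheroids (log2 difference −1.30, limma adjusted p 0.033), and all 4 of its probe sets above background passed. Its control arrays read 10.08 and 10.13 in 2D and 9.61 and 9.49 in 3D, so the treated spheroids were below all others. GALNT10 read 9.97 and 10.07 in treated monolayers and 9.30 and 8.78 in treated spheroids (−0.98, limma adjusted p 0.0376), where 1 of its 3 probe sets passed and the smallest difference was −0.40, while its control groups had a like difference that just missed (10.04 and 10.20 in 2D, 9.06 and 9.03 in 3D, −1.08, limma adjusted p 0.051). The GALNT1 call held only without 3D treated array 1, and that of GALNT10 only without one of the 3D treated arrays, with adjusted p up to 0.124 and 0.162 otherwise. GALNT2, another broad initiator, stayed between 9.75 and 10.18 on the 8 arrays and its difference in spheroids was 0.14 (limma adjusted p 0.933).

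**Figure D3:**
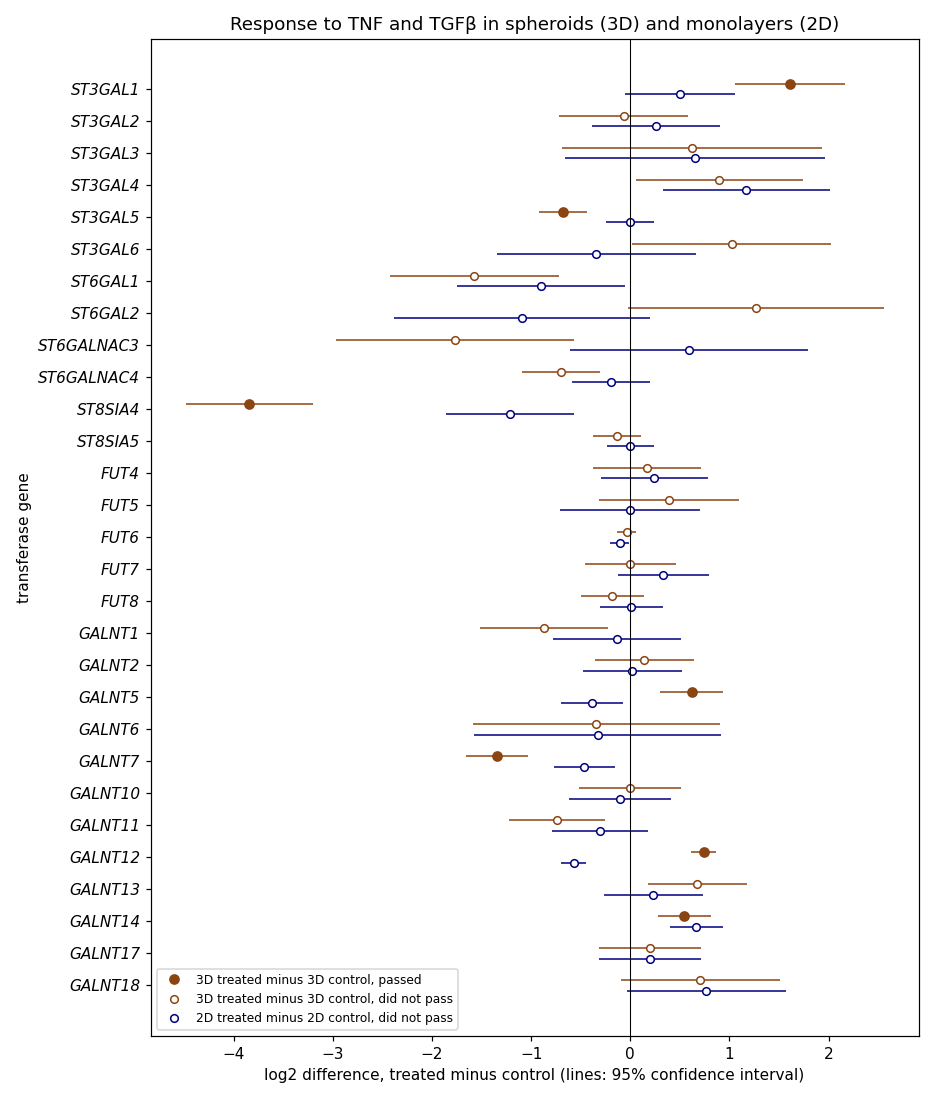
Log2 difference between treated and control cultures (horizontal axis) with its 95% confidence interval from limma for the 29 transferases above the array median on all arrays (vertical axis), in spheroids (brown) and monolayers (blue); filled points passed at an adjusted p of 0.05. Filled points are the 7 spheroid differences, from −3.84 for ST8SIA4 to 1.61 for ST3GAL1, and the GALNT12 points lie on opposite sides of 0.

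FUT8, the enzyme of core fucose on N-glycans, was lower in spheroids than in monolayers. It read 7.85 and 7.72 in treated spheroids and 8.66 and 8.47 in treated monolayers, a log2 difference of −0.78 (SE 0.12, limma adjusted p 0.0198), or 1.72-fold lower. The second probe set, also above the array median on all arrays, gave −1.11 between these groups and did not pass. The control groups read 7.87 and 8.07 in 3D and 8.64 and 8.48 in 2D (−0.59, limma adjusted p 0.0668). Treated minus control was −0.18 in 3D and 0.01 in 2D, and neither passed (limma adjusted p 0.536 and 1). The call between the treated groups was lost without either 2D treated array or without 3D treated array 2, with adjusted p up to 0.0803.

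FUT1, which makes the H antigen, read 2.44 and 2.48 in treated monolayers and 2.23 on each of the other 6 arrays. The treated monolayer values exceeded the medians of their own arrays by 0.011 and 0.042 only, and the other 6 were below theirs. The fitted differences passed in monolayers (0.23, SE 0.013, limma adjusted p 0.0313), between the treated groups (−0.23, limma adjusted p 0.00291) and for the difference of the responses (−0.23, limma adjusted p 0.0204). The SD was 0.0 in every group but the treated monolayers, so the small SE reflects tied values near background more than spread between arrays. No fold is given, since 1 treated monolayer value, 2.44, lies below the median of a control monolayer array, 2.47. The monolayer call was lost without any 1 of the 4 spheroid arrays, with adjusted p up to 0.14, and that for the difference of the responses without dim probe sets (limma adjusted p 0.127).

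The other fucosyltransferases did not pass in any comparison. FUT4, a maker of Lewis x structures, stayed between 4.68 and 5.51, and FUT6, of the Lewis group, between 4.82 and 4.98. Both repeated a value on several arrays (5.17 for FUT4 and 4.90 for FUT6), so these levels may hold no signal. FUT3, FUT5 and FUT6 are close homologues, so their probe sets may share signal and their values are uncertain. FUT5 read 2.95 on 7 arrays and 3.72 on 1 treated spheroid array. Within the whole fucosyltransferase family, 0 of 9 members passed in treated spheroids by limma, beside 16.4% of all genes. An unadjusted p under 0.05 was found for 0 of them, beside 31.2% of all genes. FUT1, FUT2, FUT3, FUT7 and FUT9 each read the same on every spheroid array, a difference of 0.0, so they could not pass. These counts therefore say little about the family.

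In all, 17 transferases above the array median on all arrays passed in no comparison. GALNT11, an initiator tied to Notch, differed by −0.74 (limma adjusted p 0.0861), and GALNT13, known from neural tissue, by 0.68 in treated against control spheroids (limma adjusted p 0.117). GALNT6, an initiator often studied in carcinomas, was lower in spheroids than in monolayers by −1.68 without and −1.70 with treatment (limma adjusted p 0.134 and 0.0918). Of the members near background on most arrays, GALNT3 read 3.40 and 2.59 in control spheroids and 2.24 and 2.27 in treated ones (limma adjusted p 0.229).

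The enzymes around the transferases were followed in 10 lists that hold 49 genes. In treated against control spheroids 2 of these passed as higher and 14 as lower, which is 32.7% of them beside 16.4% of all genes. Their median log2 difference was −0.03. Of the 49, 45 were above the array median on all arrays, as were 11910 of the 19775 genes, of which 25.6% passed. Unlike the member calls, the calls of list genes were not checked with arrays left out or under the other alternatives. In the CMP-sialic acid supply, 4 of 5 genes fell: SLC35A1, the Golgi transporter of CMP-sialic acid (−1.08, limma adjusted p 0.00845), NANS (−0.69, limma adjusted p 0.0456) and NANP (−0.57, limma adjusted p 0.00775) of sialic acid synthesis, and GNE, whose enzyme starts it (−0.56, limma adjusted p 0.0407). CMAS, which makes the CMP-sugar, did not pass (0.03, limma adjusted p 1). The median of this list was −0.57, against 0.0 over all genes. Of all genes, 6380 were at or below the array median on all arrays. This list held no such gene, so the medians are not like for like.

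SLC35A1 read 10.08 and 10.00 in control spheroids and 9.07 and 8.85 in treated ones. Both treated arrays were below both control arrays, a 2.12-fold lower level. In the GDP-fucose supply 2 of 5 genes passed as lower, FCSK of the salvage route (−1.24, limma adjusted p 0.00458) and the transporter SLC35C1 (−0.60, limma adjusted p 0.0395). All 5 were lower, from −1.51 to −0.49, with a list median of −0.95. The largest difference, that of FPGT, did not pass (−1.51, limma adjusted p 0.0755). In the UDP-GalNAc supply 1 of 3 rose, UAP1, which makes the UDP-sugar (0.58, limma adjusted p 0.00587).

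Of the enzymes that remove the caps, both fucosidases fell, FUCA1 by −1.48 (limma adjusted p 0.0288) and FUCA2 by −0.65 (limma adjusted p 0.0105). Among 4 sialidases NEU3, of the plasma membrane, fell (−0.93, limma adjusted p 0.0282). POFUT1, which fucosylates Notch, fell (−0.53, limma adjusted p 0.00289), as 1 of 4 protein O-fucosyltransferases.

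Of 7 genes that extend mucin-type cores 2 passed as lower, GCNT3, a core branching enzyme (−1.90, limma adjusted p 0.00766), and B3GNT3 (−1.18, limma adjusted p 0.0143). Among 13 lactosamine and N-glycan branching genes MGAT4A rose (0.42, limma adjusted p 0.048), and MGAT2 (−0.96, limma adjusted p 0.0394) and B4GALT4 (−0.91, limma adjusted p 0.0173) fell. B4GALT1 had the largest difference of this list, 3.31 in spheroids and 2.62 in monolayers, but did not pass (limma adjusted p 0.0611 and 0.398). The GalNAc-transferases GALNTL5 and GALNTL6, whose symbols the rule leaves out, were at or below the array median on all arrays. In monolayers 0 of the 49 genes passed by limma. An unadjusted p under 0.05 was found for 15 of the 49, a larger share than the 10.7% of all genes. Between the control groups 6 were higher and 4 lower in spheroids, beside 10.7% of all genes in either direction. Between the treated groups 7 were higher and 13 lower, beside 23.6%, and the difference of the responses passed as higher for 1 and lower for 3, beside 3.26%.

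**Figure D4:**
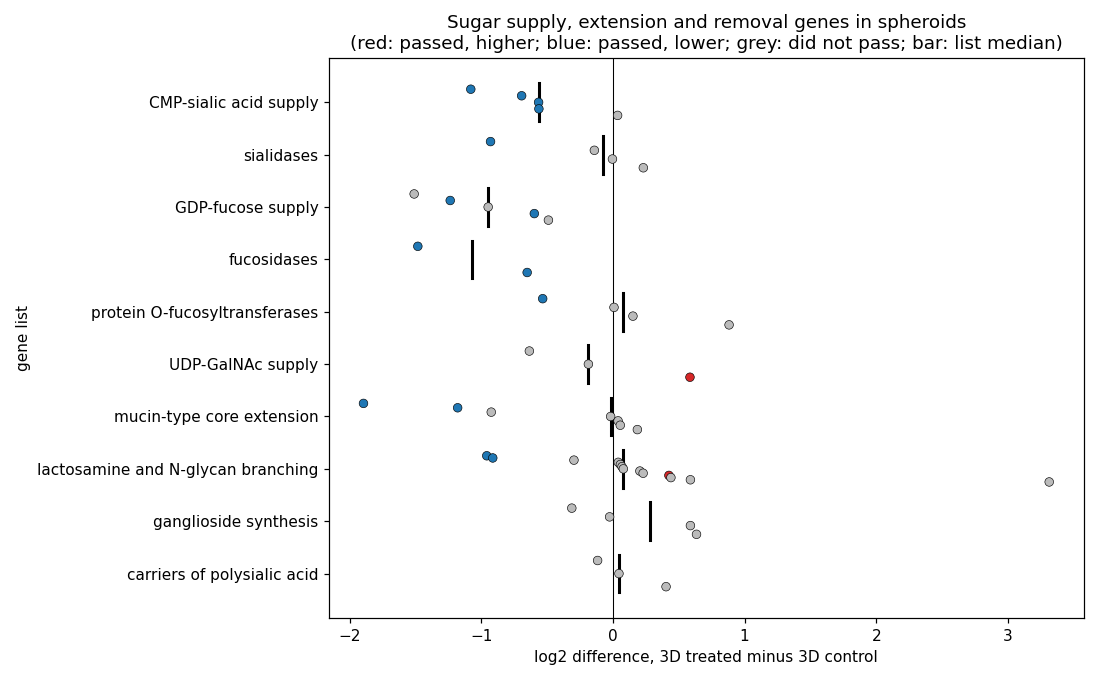
Log2 difference between treated and control spheroids (horizontal axis) for the genes of 10 lists (vertical axis); each point is a gene, red where it passed as higher, blue where it passed as lower and grey where it did not pass, and black bars are list medians. In the CMP-sialic acid supply 4 of 5 points are blue and the median is −0.57, and both fucosidases are blue.

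The epithelial identity of the cells was seen in 5 of 5 epithelial markers above the array median on all arrays, and of 4 alveolar type II markers NKX2-1 was at or below it on all, SFTPC lay between 2.47 and 2.72, SFTPB between 4.12 and 4.21 and ABCA3 between 7.24 and 7.49. SFTPB and ABCA3 repeated a value on several arrays (4.12 and 7.36), so their levels may hold no signal. The epithelial markers moved with treatment: 4 of 5 passed as lower in treated spheroids, with CDH1 at −0.91 and EPCAM at −2.20 (limma adjusted p 0.0155 and 0.0402). KRT19 was also lower but missed the threshold (−0.74, limma adjusted p 0.0638). The summed log2 level of the 5 was 58.8 to 59.1 in control and 53.5 to 53.6 in treated spheroids, and 58.3 to 58.5 in control and 55.0 to 55.3 in treated monolayers. Of 6 leukocyte and endothelial markers, PTPRC, CD3E, CDH5 and VWF were at or below the median on all arrays, and PECAM1 lay between 4.24 and 4.61. CD14, the sixth, read 8.36 to 9.69 on the other 6 arrays and 6.05 and 5.28 in treated spheroids, where it fell (−2.86, limma adjusted p 0.0477), which took the summed level from 21.7 to 22.1 down to 18.7 to 19.6 in spheroids. The part of these shifts in the results above was not tested.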

How the data were processed

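Expression was measured on 8 Affymetrix U133 plus 2.0 arrays. The authors made the deposited log2 values with GCRMA, which subtracts background and summarizes probes, and the submitters' notes name limma 3.6.9. The table holds 54675 probe sets. Of these, 62 controls were left out and 54613 tested, including 15259 with the same value on all arrays. Probe sets naming several genes (1801) or unnamed (11721) in the platform annotation were tested but not counted as genes. The test was lmFit and eBayes of limma 3.58.1 (R 4.3.3) with 1 mean per group over all 8 arrays (4 residual degrees of freedom, prior 0.347). P-values were adjusted by Benjamini-Hochberg across the 54613 probe sets, and 0.05 was the threshold. The fit was tested on simulated data.

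The members and lists were chosen with earlier results of these data known. Values are given per array for members that passed in any comparison, and for up to 3 called genes of each other list the log2 difference. Members that missed the threshold were named by their family. FUT10, FUT11, GALNT4 and ST8SIA6 have no probe set that the rule takes. ST6GAL1 and others outside these were chosen after their values were seen. As alternatives, the fit was run with a replicate block, on quantile-normalized or median-centred arrays, with an intensity trend, on the 4 arrays of a comparison alone, without dim probe sets (those that exceed the median on fewer than 2 arrays), with 1 probe set per gene in the adjustment, with the probe set of largest difference, and with a 2-fold minimum. Each array was also left out in turn, and its lone partner is then taken to vary as the remaining pairs do. The calls of list and marker genes were not checked under these alternatives. With 2 arrays in a group, their number limits the precision. Python 3.11.15 and matplotlib 3.10.9 made the plots.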

Additional observations from a re-analysis of the deposited data

Results flagged for a closer look

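For 3 members the responses to treatment differed between spheroids and monolayers by the interaction term of the limma fit. For ST8SIA4 the spheroid response minus the monolayer response was −2.63 on the log2 scale (adjusted p 0.0478). The call was lost in 7 of 14 alternatives: 5 of the 8 arrays left out, quantile normalization and the replicate block. It was lower with treatment on both arrays in each culture. For GALNT12 the difference was 1.31 (adjusted p 0.0077), with both treated arrays above the controls in 3D and below them in 2D. The GALNT12 call was lost in 1 of 14 alternatives, with the probe set of the largest difference (1.90, limma adjusted p 0.14). For FUT1 the difference was −0.23 (adjusted p 0.0204), between values below the array median on 6 of 8 arrays. The FUT1 call was lost without dim probe sets (adjusted p 0.127) and under the replicate block (adjusted p 0.0581).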

How the results depend on the processing

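Leaving out 1 array at a time, the number of members that passed ranged from 5 to 7 between treated and control spheroids (7 with all arrays), from 0 to 3 in monolayers (1), from 3 to 7 for the difference of the responses (3), from 0 to 2 between control groups (3) and from 8 to 13 between treated groups (12). These counts include members gained: of the calls made with all arrays, 3 to 5, 0 to 1, 2 to 3, 0 to 1 and 6 to 10 held, and up to 3, 2, 4, 2 and 3 were gained, in the same order. A filter on dim probe sets, which leaves fewer tests, gave 13, 5 and 8 members for the spheroid treatment, the difference of the responses and the control groups. These were 38.2%, 14.7% and 23.5% of the 34 members still tested, beside 39.2%, 16.7% and 31.3% of all genes still tested. In monolayers the filter left 1 member (2.94%, beside 1.83% of all genes), GALNT12 in place of FUT1. The 6 that it added in treated spheroids were GALNT1, GALNT11, GALNT13, ST6GAL1, ST6GALNAC3 and ST6GALNAC4. With only the 4 arrays compared the counts were 0 in both treatment comparisons and between controls, and 1 between treated groups. Asking for a fold of at least 2 left 3 in spheroids, 0 in monolayers, 1 between controls and 7 between treated groups. Subtracting array medians gave 2 in monolayers and 5 for the difference of the responses, and adjustment over 1 probe set per gene gave 5 between controls. Except where fewer tests or arrays are the change itself, the cause was not tested. Only for the filter on dim probe sets is the share of all genes given, so the other counts of this section stand without that comparison.

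The replicate block gave 0 in monolayers, 1 for the difference of the responses and 0 between controls, and 16 of 26 calls of single members held under it. Those lost were GALNT14 in spheroids, FUT1 in monolayers, FUT1 and ST8SIA4 for the difference of the responses, GALNT12, GALNT7 and ST6GAL2 between controls, and GALNT1, GALNT10 and GALNT14 between treated groups. Same-numbered arrays correlated by 0.281 in 2D and 0.102 in 3D control and treated groups and by −0.019 to 0.057 in the other pairs of groups, so the numbers are not shown to pair the arrays. Of 387 checks of single calls under an alternative, 258 held, 128 kept their direction but not the threshold, and 1 reversed: GALNT5 in spheroids was −0.91 with the probe set of the largest difference. Quantile normalization and median subtraction moved the median of all genes by less than 0.1 on the log2 scale. Values near the array medians carry little signal over background.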
